A study of Nothobranchius furzeri with 30 samples.

Results

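Carriers and pumps that move glucose, lactate, ions and transmitters across membranes were followed in the neural retina of the African turquoise killifish, *Nothobranchius furzeri*, between 6 and 18 weeks of age. They were chosen by name alone, as the loci whose deposited gene name belonged to the solute carrier families SLC2, SLC4, SLC6, SLC8, SLC9, SLC12, SLC16 or SLC38, or to the ion pumps ATP1A, ATP1B, ATP2A or ATP2B. This gave 148 of 24989 loci, and 100 of them held enough counts to be tested, among 13975 tested loci in all. The other 48 had at most 280 counts each over all fish, 25 of them had under 30, and 4 had none.

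The fish were untreated wildtype females of the inbred GRZ-AD strain, 10 each at 6, 12 and 18 weeks, so that age was the only labelled difference between the groups. A sample was the pair of retinas of 1 fish, from which the retinal pigment epithelium (RPE) had been taken off, and polyadenylated RNA was read from its 3′ end with QuantSeq. Levels, given as CPM (counts scaled to a common library total), were compared between ages within a locus and not between loci. All values are of the whole tissue, in which fewer cells of a type and less RNA per cell cannot be told apart.

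The retina is among the most energy-hungry tissues of the body. Glucose enters through facilitative carriers of the SLC2 family, and photoreceptors ferment much of it. Lactate moves between photoreceptors, Müller glia and the RPE through the proton-coupled monocarboxylate carriers of the SLC16 family. Several of these carriers, though not all, need the chaperone basigin to reach the membrane. The sodium-potassium pump, built from an ATP1A catalytic and an ATP1B accessory subunit, sets up the sodium gradient on which the SLC6 and SLC38 carriers of transmitters and amino acids, the SLC8 sodium-calcium exchangers, the SLC9 sodium-proton exchangers and part of the SLC4 bicarbonate and SLC12 chloride carriers draw.

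Not every name of the rule stands for a plasma membrane carrier. The ATP2A pumps (SERCA) fill the endoplasmic reticulum, SLC9A7 and SLC9A8 are known mainly from endosomes and the Golgi, and 6 loci, of which 5 were tested, carry names of proteins that only bind a carrier or its gene, such as the scaffold SLC9A3R1. A name was shared by several members in 16 cases, and reads of such near-identical or split loci cannot be assigned with certainty. In the authors' single-cell data, whose value is pooled over all cells and ages, the tested loci were detected in 0.0102% to 63.5% of cells, with a median of 8.42%.

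A fish had between 3552371 and 5840792 counts on loci, and the 148 loci took between 0.530% and 0.857% of them. The tissue label was checked against markers. Rod markers were abundant at every age, between 13900 and 21700 CPM in sum. RPE markers were still present in every fish, and all 10 tested RPE loci were lower at 18 than at 6 weeks. Their 15 loci summed to between 730 and 1550 CPM at 6 weeks, between 212 and 1680 at 12 weeks, and between 261 and 738 at 18 weeks. Of the 5 cone loci, 4 were lower at 18 weeks, with sums of 5900 to 9360 CPM at 6 weeks and 3710 to 5130 CPM at 18 weeks. Of the Müller glia loci, 3 of 4 tested were higher, with sums of 1430 to 1660 and 1920 to 2330 CPM. The immune markers were higher at 4 of 5 loci, with sums of 90.1 to 224 and 278 to 498 CPM. One library stood apart. Fish 1 at 18 weeks had a ganglion cell marker sum of 2130 CPM against 1030 to 1300 CPM in the other 9 fish of its age, and counts that differ without it are given both ways at 18 against 6 weeks. This fish also had the highest rod, Müller glia and immune sums of its age, 21700, 2330 and 498 CPM. The other fish of its age had at most 19900, 2270 and 409 CPM.

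Most tested carriers did not pass the test. At 18 against 6 weeks 12 of the 100 tested loci were higher and 19 lower at an FDR under 0.05, where 14% of all tested loci passed as higher and 15.2% as lower, so that the carriers were near the background. Without fish 1 at 18 weeks, 17 were higher and 20 lower of 101 tested. The median log2FC of the carriers was 0.01, beside 0.02 over all tested loci. When an absolute log2FC of at least 1 was also asked for, 2 carriers were called, both lower, SLC16A1(2OF2) and SLC6A20, where 2.03% of all tested loci were called lower and 1.31% higher. In the main fit none was called higher, and 0 rose by that size at an unadjusted p under 0.05. The largest rise of a carrier that passed there was a log2FC of 0.81. DESeq2 called none higher either. With library size alone 5 were called higher, without a filter on low counts 2, and with a cone marker score as a covariate 1. In 2 carriers each 18-week-old fish had a lower level than each 6-week-old one, which held for 1.33% of all tested loci. The opposite held for no carrier and for 1.01% of all tested loci. The shares of 14% and 15.2% are also the background of the family counts of the main fit below. For the other settings the share of all tested loci was not counted. Of all 13975 tested loci, 7333 had a log2FC above 0 at 18 against 6 weeks and 6642 below 0.

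The direction of the changes depended on the scaling. TMM factors, the main scaling, left the median of all tested loci near 0, whereas library size alone set it to 0.32. With library size alone 45 carriers were higher and 5 lower at 18 weeks, and their median was 0.31. The share of all tested loci that passed was not counted on that scale, so these counts have no background. Changes are therefore given relative to the TMM scale. The family medians of SLC16, SLC4, SLC38, ATP1 and ATP2B, which are below 0 on that scale, were 0.25, 0.15, 0.24, 0.18 and 0.16 with library size alone.

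Fewer carriers passed between the nearer ages. At 12 against 6 weeks 4 were higher and 2 lower, beside a background of 1.3% and 0.909%, and 0 were called higher and 1 lower, beside 0.336% and 0.165%. DESeq2 gave the same 0 and 1 there, and 0 rose by that size at an unadjusted p under 0.05. At 18 against 12 weeks 3 were higher and 8 lower, beside 5.19% and 6.93%. In the main fit none was called at 18 against 12 weeks, beside 0.258% higher and 0.766% lower. There 0 passed the same size at an unadjusted p under 0.05, and DESeq2 called none. Without a filter on low counts 2 were called higher. With a marker score of RPE, cones or Müller glia as a covariate 1 was called lower. The 3 comparisons share their fish, so they are not independent of each other.

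**Figure D1:**
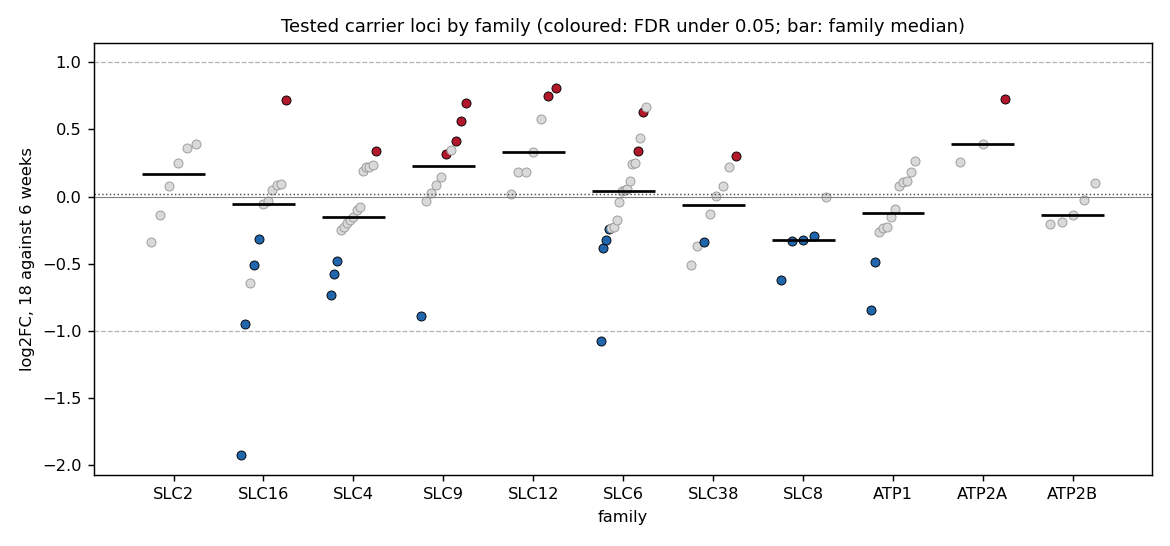
The log2FC at 18 against 6 weeks (vertical axis) of the 100 tested carrier loci by family (horizontal axis), red where higher and blue where lower at an FDR under 0.05, grey otherwise. Bars are family medians, the dotted line is the median of all tested loci at 0.02 and dashed lines mark a log2FC of 1 in either direction; only the SLC16A1(2OF2) and SLC6A20 loci lie past them.

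Of the lactate carriers, the loci named for MCT1 went in opposite directions. SLC16A1(2OF2) (XLOC_016491) fell by 1.92 on the log2 scale between 6 and 18 weeks (SE 0.295, FDR 5.6e-06), whereas SLC16A1(1OF2) (XLOC_020903) rose by 0.72 (SE 0.0929, FDR 3.09e-07). MCT4 (SLC16A3), the carrier by which strongly glycolytic cells release lactate, and MCT2 (SLC16A7), the high-affinity carrier of neurons in mammals, were both lower at 18 weeks. Of the 11 tested SLC16 loci 1 was higher and 4 were lower at 18 weeks, beside 14% and 15.2% of all tested loci. Their median log2FC was -0.05.

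SLC16A1(2OF2) measured 13.1 ± 5.03 CPM (SD, n = 10) at 6 weeks, with a lowest, median and highest fish of 6.68, 11.6 and 21.2 CPM. At 12 weeks its mean was 5.73 ± 4.14 CPM, with 0.884, 4.49 and 15.6 CPM, and at 18 weeks 3.44 ± 1.56 CPM, with 1.64, 3.39 and 6.63 CPM. The 10 oldest fish thus lay below every 6-week-old fish, by a narrow margin between the nearest fish, and 7 of the 12-week-old fish did as well. Most of the fall was present at 12 weeks, with a log2FC of -1.21 against 6 weeks (SE 0.285, FDR 0.0122), the only carrier call of that comparison, and the log2FC of -0.72 at 18 against 12 weeks did not pass (FDR 0.13).

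This locus was lower at 18 weeks together with the RPE markers. It was detected in 0.0102% of the authors' single cells, the lowest share among the tested carriers. Every RPE marker locus was detected in a larger share, from 0.023% for TYRP1B to 13.8% for RPE65A. The RPE score, the mean log2 CPM of 10 RPE loci, was 5.29 ± 0.314 at 6 weeks, 4.56 ± 0.738 at 12 weeks and 3.95 ± 0.392 at 18 weeks (SD, n = 10). Among the 12-week-old fish, fish 7 had both the highest score, 5.64, and the highest SLC16A1(2OF2) level, 15.6 CPM, and fish 8 had the lowest of both, 3.22 and 0.884 CPM. At 6 weeks fish 3 was lowest in both, at 4.67 and 6.68 CPM. The fish with the highest score there, 5.71, had 11.5 CPM, and the fish with the highest level, 21.2 CPM, had a score of 5.31. At 18 weeks fish 9 and fish 7 had the highest scores, 4.66 and 4.40, and the highest levels, 5.31 and 6.63 CPM. Fish 2 at 18 weeks ranked 3 of its age in score, at 4.08, and 7 in level, at 2.91 CPM. With the score as a covariate the log2FC at 18 against 6 weeks was -0.25 and no longer passed. The scores ran from 4.67 to 5.71 at 6 weeks and from 3.43 to 4.66 at 18 weeks, without overlap. This fit therefore cannot tell age and remaining RPE apart, and the part of remaining RPE in the fall was not tested.

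**Figure D2:**
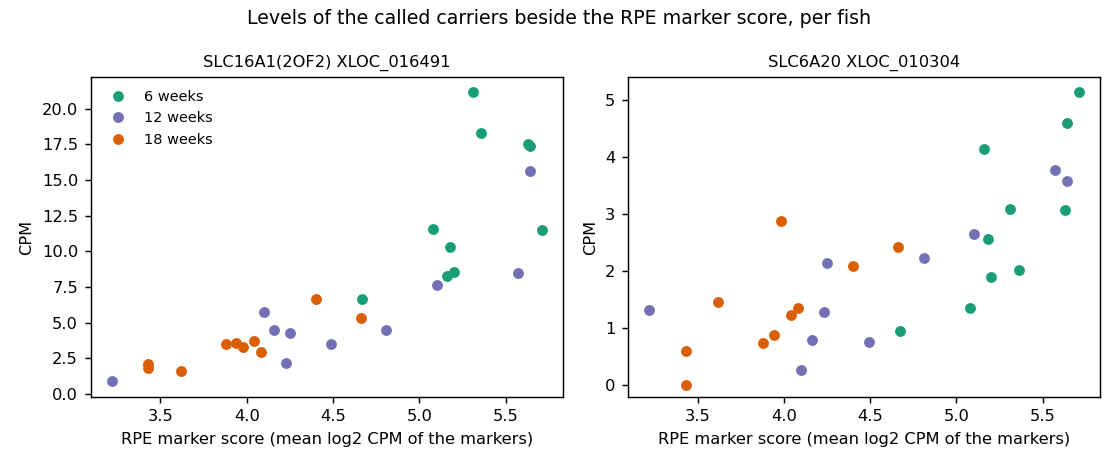
CPM (vertical axis) of SLC16A1(2OF2), left, and SLC6A20, right, against the RPE marker score, the mean log2 CPM of 10 RPE loci (horizontal axis), with 1 point per fish coloured by age. The 18-week-old fish have scores between 3.43 and 4.66 and the 6-week-old fish between 4.67 and 5.71, and the 12-week-old fish spread over both ranges.

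SLC16A1(1OF2) rose at each step. Its levels ran from 49.8 over a median of 58.5 to 72.7 CPM at 6 weeks, from 65.3 over 78.2 to 92.3 CPM at 12 weeks, and from 71.1 CPM upwards over 98.4 CPM at 18 weeks. At 18 weeks 9 of 10 fish were above every 6-week-old fish, and at 12 weeks 7 of 10 were. It passed at 12 against 6 weeks, with a log2FC of 0.41 (FDR 0.00943), and at 18 against 12 weeks, with 0.31 (FDR 0.0234). At 18 against 6 weeks it kept its direction and passed with library size alone (1.02) and with the RPE score as a covariate (0.47). With that covariate no SLC16 locus passed as higher at 12 against 6 weeks or at 18 against 12 weeks. Nor did any at 18 against 12 weeks with a cone or a Müller glia score as a covariate, both chosen after the data were seen.

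SLC16A3 measured 19.8 ± 4.69 CPM at 6 weeks, 13.7 ± 3.35 at 12 weeks and 10.2 ± 2.32 at 18 weeks (SD, n = 10). The 18-week-old fish lay at 4.72 CPM or above, with a median of 11.2 CPM, and overlapped the 6-week range of 11.2 to 25.1 CPM only through the lowest 6-week-old fish. The log2FC was -0.95 (SE 0.155, FDR 1.49e-05), just short of the size asked for in a call, and it was -0.64 with library size alone and -1.14 with the RPE score as a covariate, passing in both. SLC16A7 stayed at 50.2 ± 5.41 and 47.0 ± 7.53 CPM at 6 and 12 weeks, with an FDR of 0.699 between them, and was 35.2 ± 5.53 CPM at 18 weeks. The log2FC was -0.51 (SE 0.0948, FDR 9.48e-05) at 18 against 6 weeks and -0.42 (FDR 0.00302) at 18 against 12 weeks, and 9 of 10 of the oldest fish lay below every 6-week-old fish. With library size alone its log2FC at 18 against 6 weeks was -0.21 and did not pass. On that scale no SLC16 locus passed as lower at 18 against 12 weeks.

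The remaining lower locus of the family was SLC16A6(1OF2) (XLOC_021914), called slc16a6b in RefSeq. It was lower at 12 weeks, with a log2FC of -0.48 (FDR 0.0115), and at 18 weeks, with -0.31 (FDR 0.0287), and it went from 34.3 CPM at 6 weeks to 24.6 and 27.6 CPM. With library size alone its log2FC at 18 against 6 weeks was -0.0072 (FDR 0.965). The other locus of that name, XLOC_018962, had a log2FC of 0.087 (FDR 0.787) at 18 against 6 weeks. With loci of 1 name summed, 3 SLC16 loci were lower at 18 weeks.

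**Figure D3:**
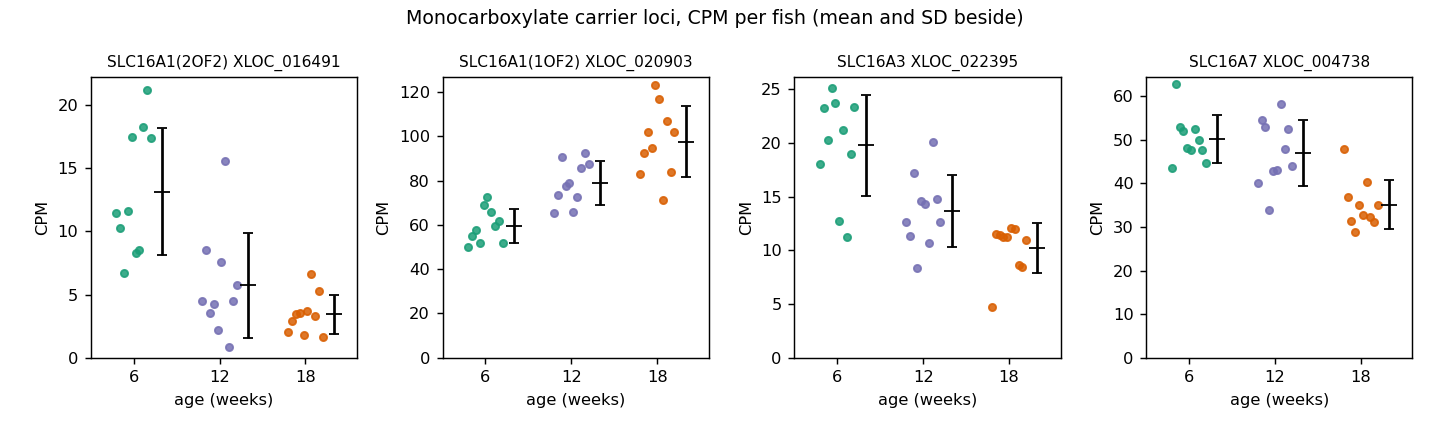
CPM (vertical axes, each from 0) of SLC16A1(2OF2), SLC16A1(1OF2), SLC16A3 and SLC16A7 by age in weeks (horizontal axes), with 1 point per fish and the mean and SD of 10 fish beside the points. SLC16A1(2OF2), SLC16A3 and SLC16A7 are lowest at 18 weeks, at means of 3.44, 10.2 and 35.2 CPM, and SLC16A1(1OF2) is highest there, at 97.6 CPM.

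Of the glucose carriers none passed at 18 against 6 weeks. The 6 tested of 17 SLC2 loci had a median log2FC of 0.17 and 1 locus had an unadjusted p under 0.05, while DESeq2 gave 1 lower locus, SLC2A1B. SLC2A1, or GLUT1, is the carrier through which glucose enters the retina, and the fish has it as a pair of loci that pointed in opposite directions. SLC2A1B (XLOC_016471) measured 280 ± 58.1 CPM at 6 weeks, 262 at 12 weeks and 221 ± 46.9 CPM at 18 weeks, with a log2FC of -0.34 (SE 0.136, FDR 0.0562). SLC2A1A (XLOC_021881) measured 52.2 ± 13.9, 58.2 and 67.2 ± 30.1 CPM, with a log2FC of 0.36 (SE 0.24, FDR 0.265).

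Fish 1 at 18 weeks stood apart at both. It had the lowest SLC2A1A level of all fish, 4.53 CPM, where the other 9 of its age ran from 29.3 to 94.8 CPM, and the highest SLC2A1B level of its age, 339 CPM, where the next was 242 CPM. Without this fish SLC2A1A was higher, with a log2FC of 0.50, and SLC2A1B lower, with -0.43, and both passed. With this fish kept, SLC2A1B also passed as lower under upper-quartile factors and in the fit of the 20 fish compared. The sign of SLC2A1B turned to 0.24 with the RPE score as a covariate, where it did not pass, and its log2FC was -0.04 with library size alone.

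The bicarbonate carriers, which set the pH inside and outside cells, had 1 higher and 3 lower of 15 tested loci at 18 weeks and a median log2FC of -0.15. When fish 1 at 18 weeks was left out, 3 were higher and 2 lower. SLC4A10B (XLOC_020699), named for the sodium-driven bicarbonate exchanger of neurons, fell by 0.73 on the log2 scale (SE 0.159, FDR 0.000567). It was between 21.3 and 48.9 CPM at 6 weeks, with a median of 41.6 CPM, between 23.3 and 47.3 CPM at 12 weeks, with 38.4 CPM, and between 7.54 and 33.3 CPM at 18 weeks, with 25.3 CPM. The fall was measured from 12 to 18 weeks, with a log2FC of -0.10 at 12 against 6 weeks (FDR 0.834) and -0.63 at 18 against 12 weeks (FDR 0.00679), although the fish of all ages overlapped. Its lowest value was again that of fish 1 at 18 weeks, without which the log2FC at 18 against 6 weeks was -0.63 and still passed. SLC4A10(2OF2) (XLOC_011886) pointed the other way and did not pass. It measured 77.8 ± 11.9 CPM at 6 weeks and 91.8 ± 16 CPM at 18 weeks (log2FC 0.24, FDR 0.0791).

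A pair of loci was named SLC4A1A, the anion exchanger of red blood cells in mammals. The locus XLOC_010804 measured 23.9 ± 4.24 CPM at 6 weeks and 17.1 ± 3.96 CPM at 18 weeks (log2FC -0.48, SE 0.132, FDR 0.00532), and XLOC_010120 measured 129 to 163 CPM and 81.9 to 155 CPM (log2FC -0.15, FDR 0.147). Summed, they had a log2FC of -0.19, which did not pass. Library size alone turned the sign of XLOC_010120 to 0.15 and left XLOC_010804 at -0.18, where it did not pass (FDR 0.297). Of 11 listed red blood cell marker names 3 had a locus. These 3 loci summed to between 0 and 5.85 CPM over all fish, and they were too low to be tested. The haemoglobin name that the paper used for its red blood cells was not on the list, so this sum does not measure the content of blood. The locus SLC4A1B had 8 counts over all fish. The remaining loci that passed were SLC4A3 (XLOC_020781), an anion exchanger, and SLC4A7 (1 OF 2), a sodium-bicarbonate cotransporter. SLC4A3 XLOC_020781 had a log2FC of -0.58 (FDR 0.0474), which was -0.27 with library size alone (FDR 0.303). The other locus named SLC4A3, XLOC_001971, went from 102 ± 15.6 to 119 ± 16.9 CPM (log2FC 0.22, FDR 0.0799). With loci of 1 name summed, 1 SLC4 locus was lower at 18 weeks. SLC4A7 (1 OF 2) went from 101 ± 16.5 to 128 ± 14.8 CPM with a log2FC of 0.34 (FDR 0.014).

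Among the 10 tested loci named for sodium-proton exchange, 4 were higher and 1 lower at 18 weeks, beside 14% and 15.2% of all tested loci. The median log2FC was 0.23. With fish 1 at 18 weeks left out, 3 were higher and 1 lower. With library size alone 6 were higher and 1 lower, and the median was 0.54, beside 0.32 over all tested loci on that scale. With the RPE score as a covariate 1 was higher, SLC9A3R1, and 1 lower, and the median was 0.047. SLC9A8 (XLOC_021685), an exchanger of the Golgi, measured 9.14 ± 1.55, 11.7 ± 2.77 and 13.6 ± 2.77 CPM at 6, 12 and 18 weeks. The log2FC was 0.57 (SE 0.139, FDR 0.00214), and 9 of the 10 oldest fish were above every 6-week-old fish.

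A further 3 of the loci that passed were scaffolds that tether SLC9A3 and other membrane proteins, and not exchangers. SLC9A3R1 (XLOC_001898) rose from a mean of 54.9 to 73.2 CPM, with ranges of 43.2 to 67.5 and 61.2 to 98.6 CPM, with a log2FC of 0.42 (SE 0.0844, FDR 0.000279), and SLC9A3R1(1OF2) rose by 0.70 (FDR 0.00852) from 3.20 to 5.17 CPM. SLC9A3R2(3OF3) fell, from 4.97 CPM at 6 weeks and 5.30 CPM at 12 weeks to 2.66 CPM at 18 weeks, with a log2FC of -0.89 (FDR 0.00332) against 6 weeks and -0.98 (FDR 0.00367) against 12 weeks. The directions of SLC9A8 and of these 3 scaffolds were the same with library size alone.

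The SLC12 cotransporters set the chloride level of neurons, and with it the effect of GABA and glycine. All 7 tested loci had a log2FC above 0 at 18 against 6 weeks, as had 7333 of all 13975 tested loci. Of the 7, 2 passed, where 14% of all tested loci passed as higher, and the median was 0.33. With library size alone 6 were higher, 2 of them called, and the median was 0.63, beside 0.32 over all tested loci on that scale. SLC12A2(2OF2) (XLOC_017512), named for the chloride loader NKCC1, was between 3.17 and 6.87 CPM at 6 weeks, with a median of 4.57 CPM, between 4.86 and 11.8 CPM at 12 weeks, with 6.97 CPM, and between 5.24 and 11.9 CPM at 18 weeks, with 7.89 CPM. The rise was present at 12 weeks, with a log2FC of 0.69 (SE 0.183, FDR 0.0334), and was 0.81 (SE 0.18, FDR 0.000753) at 18 weeks. Its paralog SLC12A2 (XLOC_020790) had medians of 30.4 and 33.8 CPM at 6 and 18 weeks (log2FC 0.18, FDR 0.115).

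SLC12A4, or KCC1, went from 5.16 ± 1.34 over 6.33 ± 1.40 to 8.81 ± 2.93 CPM, a log2FC of 0.75 (SE 0.183, FDR 0.00186), with 8 of the 10 oldest fish above every 6-week-old fish. SLC12A5B, or KCC2, the main chloride extruder of mature neurons, measured 73.0 ± 7.34 and 82.9 ± 8.43 CPM (log2FC 0.18, FDR 0.102). With the RPE score as a covariate the log2FC of SLC12A2(2OF2) and SLC12A4 were 0.82 and 0.69 and neither passed.

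The SLC6 carriers take up GABA, glycine, taurine and other amino acids with sodium and chloride. Of 33 loci 18 were tested, 2 were higher and 4 lower at 18 weeks, and the median log2FC was 0.04. Without fish 1 at 18 weeks 19 were tested, 3 were higher and 4 lower, and the median was -0.056. SLC6A13 (XLOC_016540), named for the GABA carrier GAT2 and called slc6a22.1 in RefSeq, measured 11.1 ± 2.19, 17.6 ± 3.34 and 17.3 ± 3.02 CPM at 6, 12 and 18 weeks. The rise was present at 12 weeks, when 8 of 10 fish were above every 6-week-old fish, with a log2FC of 0.66 (SE 0.129, FDR 0.00177) at 12 weeks and 0.63 (SE 0.128, FDR 0.000283) at 18 weeks. SLC6A11, a GABA carrier of glia in mammals, fell by 0.38 (FDR 0.0367), from 30.8 ± 7.18 to 23.7 ± 6.35 CPM, and library size alone left -0.07.

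SLC6A6 imports taurine, which the retina holds in large amounts. SLC6A6B was between 336 and 498 CPM at 6 weeks, with a median of 425 CPM, between 347 and 623 CPM at 12 weeks, with 466 CPM, and between 318 and 415 CPM at 18 weeks, with 343 CPM. The log2FC was -0.24 (SE 0.0856, FDR 0.0314) at 18 against 6 weeks and -0.40 (FDR 0.00142) at 18 against 12 weeks. With library size alone the former turned to 0.06, and no SLC6 locus passed as lower at 18 against 12 weeks. SLC6A6A measured 171 ± 13.5 and 186 ± 9.66 CPM (log2FC 0.12, FDR 0.17). SLC6A9, or GlyT1, the glycine carrier of glycinergic amacrine cells and glia, measured 255 ± 25.8, 267 and 265 ± 45.8 CPM at 6, 12 and 18 weeks, with a log2FC of 0.06 (SE 0.0971, FDR 0.702).

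SLC6A20, a carrier of proline and related amino acids, was the second locus called lower at 18 weeks. It measured 2.89 ± 1.4 CPM at 6 weeks, 1.88 ± 1.2 at 12 weeks and 1.37 ± 0.886 at 18 weeks, with lowest, median and highest fish of 0.955, 2.83 and 5.15 CPM at 6 weeks and 0, 1.30 and 2.88 CPM at 18 weeks. The ages overlapped widely at these few counts, and the log2FC was -1.08 (SE 0.37, FDR 0.0252). With library size alone it was -0.77 and did not pass (FDR 0.0677). Without fish 1 at 18 weeks it was -0.93, which passed the FDR but not the size of a call. It turned to 0.54 with the RPE score as a covariate and did not pass there. Here too the score cannot be told apart from age, and the part of remaining RPE in the fall was not tested. SLC6A17(1OF2), a carrier of neutral amino acids into synaptic vesicles, fell by 0.32 (FDR 0.0256), and library size alone left -0.02.

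The SLC38 carriers move glutamine and other neutral amino acids, and 1 of 8 tested loci was higher and 1 lower at 18 weeks, with a median log2FC of -0.06. SLC38A2, or SNAT2, stayed at 225 ± 40.0 and 230 ± 36.1 CPM at 6 and 12 weeks and 179 ± 28.2 CPM in the oldest fish. The log2FC was -0.33 (SE 0.105, FDR 0.0146) against 6 weeks and -0.37 (FDR 0.0181) against 12 weeks. With library size alone it was -0.03 against 6 weeks, and no SLC38 locus passed as lower at 18 against 12 weeks. SLC38A10 rose by 12 weeks, from 65.2 ± 8.64 to 84.1 ± 9.25 CPM (log2FC 0.37, FDR 0.0322), and was 80.6 ± 15.0 CPM at 18 weeks (log2FC 0.31, FDR 0.0156). At 18 against 6 weeks neither SLC38 locus passed with the RPE score or with a cone marker score as a covariate, the latter chosen after the data were seen.

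The sodium-calcium exchangers, which expel calcium in exchange for sodium, were lower at 4 of 5 tested loci, where 15.2% of all tested loci were lower. All 5 tested SLC8 loci had a log2FC below 0 at 18 against 6 weeks, as had 6642 of all 13975 tested loci. The locus that did not pass, SLC8A4B (XLOC_009481), was level, with 29.2 CPM at both ages (log2FC -0.0033, FDR 0.988). No SLC8 locus was higher, and the median was -0.32. With library size alone none passed and the median was -0.02. On that scale SLC8A3 turned to 0.02 and SLC8A4B to 0.30 (FDR 0.0514). Relative to the median of all tested loci on that scale, SLC8A3 was at -0.31 and SLC8A4B at -0.02. DESeq2 gave the same counts of 4 lower and 0 higher, and no exchanger had an unadjusted p under 0.05 on the higher side. In the fit of the 20 fish compared 3 of 5 were lower. Without a filter on low counts 3 of 7 were lower, and 1 had an unadjusted p under 0.05 on the higher side.

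SLC8A4A (XLOC_017213), of an exchanger that fishes have beside the SLC8A1 to SLC8A3 genes, was between 9.52 and 20.1 CPM at 6 weeks, with a mean of 13.2 CPM, between 4.93 and 12.7 CPM at 12 weeks, with 9.3 CPM, and between 6.28 and 13.7 CPM at 18 weeks, with 8.54 CPM. It had the largest change of the family, a log2FC of -0.62 (SE 0.168, FDR 0.00498), and 8 of the 10 oldest fish lay below every 6-week-old fish. The same held for 8 of 10 fish in SLC8A1A (XLOC_007623), the locus named for NCX1, which measured 63.7 ± 4.85, 58.5 ± 8.80 and 50.7 ± 6.72 CPM. Its log2FC was -0.33 (SE 0.0855, FDR 0.00339). SLC8A2B fell by 0.32 (FDR 0.0427) and SLC8A3 by 0.29 (FDR 0.0208). The cone markers were lower at 18 weeks as well, and with a cone marker score as a covariate, chosen after the data were seen, 4 were lower and the family median was -0.55. With the RPE score 2 were lower and the median was -0.48, with a Müller glia score, also chosen after, 2 were lower and it was -0.235, and without fish 1 at 18 weeks 3 were lower and it was -0.26.

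Of the sodium-potassium pump, 2 of 12 tested loci were lower and none higher at 18 weeks by edgeR and by DESeq2, with none at an unadjusted p under 0.05 on the higher side, and the median log2FC was -0.12. Without fish 1 at 18 weeks 1 was higher and 3 were lower, and library size alone gave 5 higher and 1 lower. With loci of 1 name summed, 1 of 9 tested loci was lower, none was higher and the median was 0.072. None of the accessory subunit loci named here passed at 18 against 6 weeks. Library size alone turned the signs of ATP1B1(1OF2) to 0.21 and of ATP1B2B XLOC_001783 to 0.15. ATP1B1(1OF2) measured 189 ± 16.5 and 177 ± 35.3 CPM (log2FC -0.09, FDR 0.495), and ATP1B1B 7.47 ± 2.07 and 9.02 ± 2.19 CPM (log2FC 0.27, FDR 0.209). The ATP1B2B loci, named for a subunit of glia and photoreceptors, measured 141 ± 20.3 and 126 ± 42.1 CPM at XLOC_001783 (log2FC -0.15, FDR 0.561) and 403 ± 46.3 and 458 ± 112 CPM at XLOC_017710 (log2FC 0.18, FDR 0.207). Fish 1 at 18 weeks had 15.3 CPM at XLOC_001783, where the next fish of its age had 120 CPM, and 216 CPM at XLOC_017710, where the other fish had 378 to 605 CPM. Without it XLOC_017710 had a log2FC of 0.26 and passed.

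Calcium pumps of the endoplasmic reticulum had 1 higher of 3 tested loci, and 2 without fish 1 at 18 weeks. ATP2A2A (XLOC_023614), named for SERCA2, measured 5.96 ± 1.93 and 5.83 ± 2.6 CPM at 6 and 12 weeks and 9.85 ± 3.20 CPM in the oldest fish. The log2FC was 0.73 (SE 0.209, FDR 0.00765) against 6 weeks and 0.77 (SE 0.209, FDR 0.0124) against 12 weeks, with 4 of the 10 oldest fish above every 6-week-old fish. When the RPE score was a covariate it was 0.07 at 18 against 6 weeks and did not pass. With library size alone all 3 SERCA loci were higher and ATP2A2A was called, at 1.03, beside a median of 0.32 over all tested loci. None of the 5 tested plasma membrane calcium pumps (ATP2B) passed at 18 against 6 weeks by edgeR or by DESeq2, 0 had an unadjusted p under 0.05 there, and their log2FC ran from -0.20 to 0.10. Without fish 1 at 18 weeks 1 was lower, with the RPE score 2 were lower, and with the cone marker score 1 was higher and 3 were lower. With library size alone all 5 had a log2FC above 0, and 2 were higher.

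**Figure D4:**
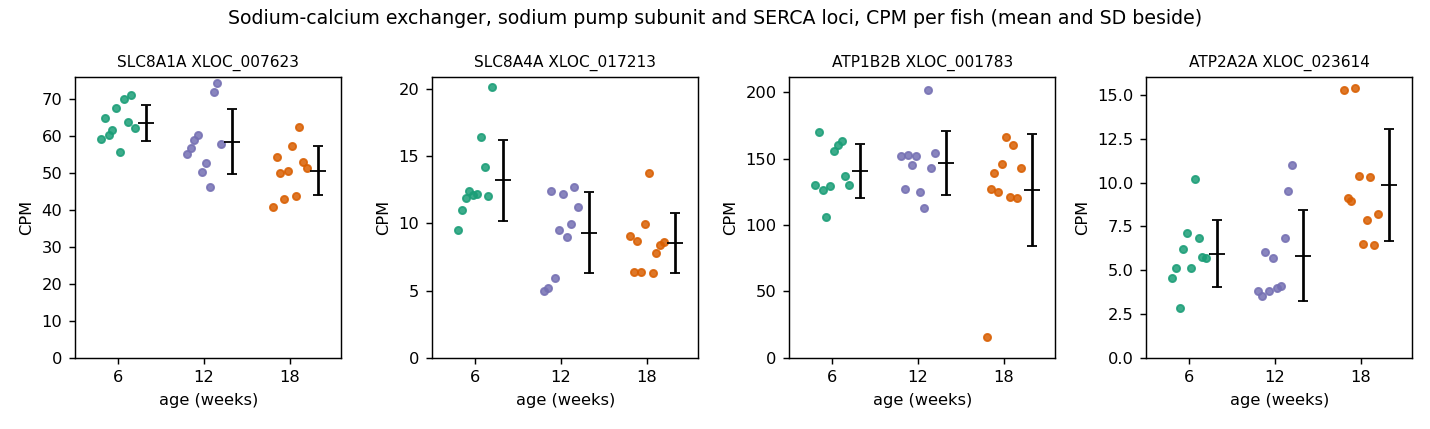
CPM (vertical axes, each from 0) of SLC8A1A, SLC8A4A, ATP1B2B XLOC_001783 and ATP2A2A by age in weeks (horizontal axes), with 1 point per fish and the mean and SD of 10 fish beside the points. SLC8A1A goes from a mean of 63.7 CPM at 6 weeks to 50.7 CPM at 18 weeks and ATP2A2A from 5.96 to 9.85 CPM, and fish 1 at 18 weeks lies at 15.3 CPM of ATP1B2B XLOC_001783.

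The genes that work with these carriers were read from a list of 23 loci of regulators and partners. Of 18 tested 1 was higher and 4 were lower at 18 weeks, beside 14% and 15.2% of all tested loci, with a median log2FC of 0.07. CA2, a carbonic anhydrase that supplies bicarbonate and protons, rose by 12 weeks, from 285 ± 43.7 to 437 ± 69.5 CPM, and was 452 ± 94.2 CPM at 18 weeks, with a log2FC of 0.67 (SE 0.11, FDR 1.68e-05) at 18 against 6 weeks. SGK1, a kinase that keeps many of these carriers at the membrane, was 90.1 ± 14.7 and 87.5 ± 10.3 CPM at 6 and 12 weeks and 65.4 ± 6.51 CPM at 18 weeks, a log2FC of -0.46 (SE 0.0879, FDR 0.000124). BSG, basigin, did not pass, with 472, 471 and 531 CPM and a log2FC of 0.17 (FDR 0.0899).

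Of other transporters of ions and transmitters, 25 of 36 listed loci were tested, and 2 were higher and 8 lower, beside 14% and 15.2% of all tested loci, with a median log2FC of -0.12. SLC24A5, a potassium-dependent sodium-calcium exchanger of pigment organelles, was called lower, with a log2FC of -1.76 (SE 0.245, FDR 1.09e-06), and is itself a gene of pigmented cells such as the RPE. The vesicular glutamate carriers SLC17A7(2OF2) and SLC17A8 fell by 0.44 (FDR 0.000377) and by 0.96 (FDR 0.000715). SLC17A7 (XLOC_008371), SLC17A6B and SLC17A6A did not pass, with log2FC of -0.10, -0.17 and 0.40 (FDR 0.418, 0.209 and 0.228). The vesicular carrier of GABA and glycine, SLC32A1(2OF2), rose by 0.43 (FDR 0.00105) from 46.6 ± 5.34 to 62.9 ± 9.23 CPM. The other tested SLC32A1 loci, XLOC_015961 and XLOC_016639, had log2FC of -0.125 and -0.49 and did not pass (FDR 0.429 and 0.175).

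**Figure D5:**
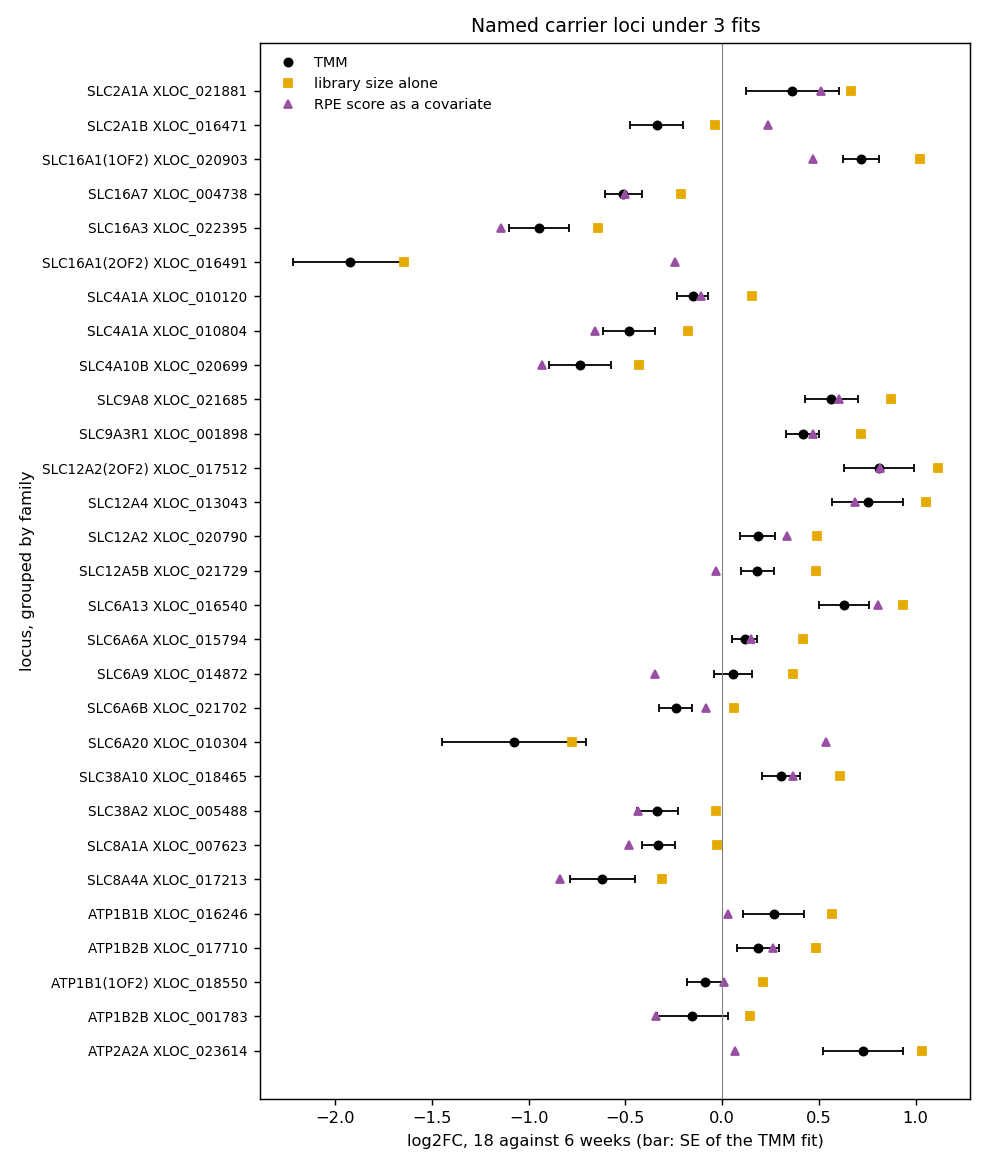
The log2FC at 18 against 6 weeks (horizontal axis) of the 29 tested named loci (vertical axis, grouped by family) with TMM factors (black, with the SE), with library size alone (yellow) and with the RPE score as a covariate (purple). Library size alone gives a higher log2FC at every locus drawn, whereas the RPE score moves SLC16A1(2OF2) from -1.92 to -0.25 and SLC6A20 from -1.08 to 0.54.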

How the data were processed

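Reads of 30 retina samples were trimmed (Trim Galore), aligned to a transcriptome of the authors' own making (STAR) and assigned to loci (HTSeq), and the authors deposited raw counts. Gene names, and the percent of single cells in which a locus was detected, came from the locus annotation the authors deposited for their single-cell data, where this percent is 1 pooled value. HTSeq categories without a locus were not used (no feature 18.0% to 27.7% and ambiguous 0.838% to 1.85% of the reads listed per fish). Fish 1 at 18 weeks had both the lowest no-feature share (next 20.7%) and the highest ambiguous share (next 1.27%). Of 148 members 94 were matched to RefSeq names (NfurGRZ-RIMD1, a later build than the authors'), used for names only. Samples were grouped by the age in their labels, and no pair of fish agreed within sampling noise (lowest chi-square per locus 2.67).

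Loci that passed filterByExpr of edgeR 4.0.16 (limma 3.58.1, R 4.3.3) with its defaults were given TMM factors (0.827 to 1.21), and glmQLFit was run on the 30 fish together, each age having its own coefficient. Ages were compared with glmQLFTest, two-sided, and Benjamini-Hochberg adjustment (FDR) over 13975 loci. "Passed" means an FDR under 0.05, and "called" also an absolute log2FC of at least 1. The SE is the size of the log2FC over the root of the F statistic. Counting error adds to the spread between fish, so loci with few counts are less precise. No family, list or correlation was tested.

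The members, the lists and the rule for named genes were chosen with earlier results of these data known. The rule names each called member, the 2 of each family with the smallest p at 18 against 6 weeks among those that passed, and fixed members (SLC2A1, SLC16A1, SLC16A3, SLC16A7, SLC6A6, SLC6A9, SLC12A2, SLC12A5, SLC4A1 and the ATP1B1 and ATP1B2 loci). Some members that the rule names are not reported here and enter only counts and medians. Further members that passed were named after their values were seen, as was BSG. Of the partner lists the 6 with the smallest p are named. The alternatives tried were DESeq2 1.42.0, scaling by library size only, by RLE or by upper quartiles, no filter, at least 10 counts in 10 fish, only the 20 fish compared, leaving out fish 1 at 18 weeks, an RPE score as a covariate, the replicate number as a block, loci of 1 name summed and, chosen after the data were seen, cone and Müller glia scores as covariates.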

Additional observations from a re-analysis of the deposited data

Results flagged for a closer look

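In 10 of 87 groups, 29 named loci at 3 ages, the highest or lowest fish lay farther from the other 9 than Dixon's critical value for 10 samples allows. Chance flags about 1 in 20 groups. Of the 10, 6 were fish 1 at 18 weeks, which had the lowest or highest level of its age at loci of 5 families.

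Fish 1 at 18 weeks was highest of its age for SLC2A1B, at 339 CPM (next 242), and SLC9A3R1, at 98.6 CPM (next 80.1). It was lowest of its age for SLC16A3, at 4.72 CPM (next 8.41), SLC4A1A XLOC_010120, at 81.9 CPM (next 130), ATP1B1(1OF2), at 93.0 CPM (next 152), and ATP1B2B XLOC_001783, at 15.3 CPM (next 120). Its RPE, cone and Müller glia marker sums were 331, 4410 and 2330 CPM, beside 261 to 738, 3710 to 5130 and 1920 to 2270 CPM in the other fish of its age. Its rod, amacrine, bipolar and immune sums were 21700, 654, 166 and 498 CPM, where the others had at most 19900, 620, 153 and 409 CPM. Its lens sum, 2.07 CPM, was below theirs, 2.97 CPM or more.

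The other 4 were single fish. Fish 7 at 12 weeks had 15.6 CPM of SLC16A1(2OF2), where the next had 8.51 CPM. Fish 2 at 6 weeks had 62.7 CPM of SLC16A7, where the next had 53.0 CPM. Fish 6 at 18 weeks had 13.7 CPM of SLC8A4A, where the next had 9.98 CPM. Fish 8 at 12 weeks had 202 CPM of ATP1B2B XLOC_001783, where the next had 154 CPM.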

How the results depend on the processing

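RLE and upper-quartile factors and at least 10 counts in 10 fish left every count of members within 1.5 times and every family median within the spread. With library size alone, at 18 against 6 weeks 45 carriers were higher and 5 lower, 5 were called higher and 1 lower, and the family medians were 0.47 for SLC2, 0.25 for SLC16, 0.15 for SLC4, 0.54 for SLC9, 0.63 for SLC12, 0.35 for SLC6, 0.24 for SLC38, -0.021 for SLC8, 0.18 for ATP1, 0.70 for ATP2A, 0.16 for ATP2B and 0.31 for all members. At 12 against 6 weeks it gave 7 higher and 1 lower, and at 18 against 12 weeks 16 higher and 2 lower. It turned SLC6A6B to 0.061. Its values move because the median of all tested loci is 0.32 on that scale. With an FDR alone and no limit on size, the counts were 4 higher and 2 lower at 12 against 6 weeks, 12 and 19 at 18 against 6 weeks, and 3 and 8 at 18 against 12 weeks. DESeq2, the fit of the 20 fish compared and the fit without replicate 1 at 18 weeks each gave 4 lower at 12 against 6 weeks, and the last pair gave 1 called lower at 18 against 6 weeks. In the 20 fish SLC6A20 was not tested. Without a filter on low counts 2 were called higher and 7 lower at 18 against 6 weeks, 2 were called higher and 5 passed as higher at 18 against 12 weeks, and the SLC6 median was -0.21, over more loci tested.

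With the RPE score as a covariate 0 were called lower and 2 were higher at 12 against 6 weeks, 4 were higher at 18 against 6 weeks, and 1 was called lower and 1 was higher at 18 against 12 weeks. The medians were 0.047 for SLC9, 0.69 for SLC12, -0.10 for SLC6, 0.18 for SLC38 and -0.40 for ATP2B, and SLC6A20 turned to 0.54. Of 29 named loci, 8 no longer passed beside SLC6A20. With the cone marker score, chosen after the data were seen, 1 was called higher, 4 called lower and 6 were higher at 18 against 6 weeks, 1 was called lower and 0 were higher at 18 against 12 weeks, the medians were 0.22 for SLC38, -0.55 for SLC8 and -0.33 for ATP2B, and SLC6A6B turned to 0.16. With the Müller glia score, likewise chosen after, 1 was called lower, 1 higher and 1 lower at 18 against 12 weeks, and the SLC6 median was -0.11. Each score follows age, so a covariate of this kind also takes up part of any change with age, and the cause of these changes was not tested. Summing loci of 1 name set the ATP1 median to 0.072, by construction over fewer loci.

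The replicate numbers did not pair the fish. Over 30 pairs of the same number across ages the correlation of deviations was between -0.11 and 0.19, it was over 0.1 in 2 of them, and 6 of 30 fish correlated best with their own number. The fit with the replicate block gave 12 higher and 20 lower at 18 against 6 weeks, 2 of them called lower, and 4 higher and 9 lower at 18 against 12 weeks. Of the named loci SLC2A1B newly passed and no other changed.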
